A study of Mus musculus with 54 samples.

Results

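Transcription profiles of 6 untransfected libraries, 3 of M1-like and 3 of M2-like mouse peritoneal macrophages, were compared, out of 54 libraries of the series. They were taken by their labels from the reprogramming experiment, in which libraries were read as paired ends of 150 nucleotides, leaving out the libraries of mock transfected cells and of cells that received siRNA pools. The macrophages were thioglycolate-elicited peritoneal exudate cells of C57BL/6 mice, which were 8 to 20 weeks old, collected 4 days after injection and then polarized for 24 h in culture. M1-like macrophages had received 100 ng/ml LPS together with 50 ng/ml IFNγ, M2-like macrophages 10 ng/ml IL4, and M0 macrophages no stimulus. The methods give 24 h of polarization for profiles of cells that were not transfected and 48 h from transfection for the reprogramming experiment, and do not say which of these holds for the untransfected libraries read as paired ends. Their comparison is called late here after the experiment they belong to, and its harvest time is uncertain. IL4 was left out of the culture that followed transfection, and it is not stated whether LPS and IFNγ stayed on. The libraries set beside them come from the polarization experiment, with single reads of 50 nucleotides after 24 h of stimulation, 3 mice per condition and 2 technical runs per mouse, and their comparison is called early. Read length and sequencing site, and possibly harvest time and culture, differ together between both experiments, so that their parts in any difference between late and early cannot be told apart.

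LPS is a bacterial cell wall component that signals through Toll-like receptor 4 to NF-κB and to type I interferon genes. IFNγ induces the guanylate-binding proteins, the immunity-related GTPases, antigen presentation genes and Nos2, the inducible nitric oxide synthase. IL4 acts through STAT6 on genes of alternative activation such as Retnla, Chil3 and Mrc1. Macrophages stimulated in these ways also differ in glycolysis, in sterol and fatty acid synthesis and in the export of cholesterol and iron, and the gene lists described below follow these functions.

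Between 13421854 and 16365521 reads were counted per library in the 6 late libraries and between 39577911 and 59443987 per mouse in the early M1-like and M2-like samples after summing both runs. Libraries of the same late group differed by 8.0 to 23.0 times counting noise (chi-square per gene), so that none was a copy of another, whereas both runs of 1 mouse gave 1.08 to 1.09. The labels do not say that late libraries of a group came from separate animals, so that p-values measure the spread between these libraries only. Expression is given as CPM, the count of a gene relative to its TMM-scaled library size, a scale set within each experiment, so that CPM values are compared only within an experiment. The macrophage markers Lyz2, Csf1r, Adgre1 and Cd68 were present in all 6 late libraries, with sums over the list of 9 markers of 8615, 7445 and 7415 CPM in M1-like libraries beside 18126, 16583 and 18932 CPM in M2-like libraries, with 1 marker higher and 5 lower in M1-like. Most of the gap between these sums came from Lyz2, with 3836 to 4896 CPM in M1-like and 11659 to 13739 CPM in M2-like libraries. Itgam, Fcgr1 and Ptprc did not pass the test. Markers of other cells also moved with the groups. The sum of the 7 B cell markers was 6.96, 28.6 and 10.2 CPM in M1-like libraries beside 38.3, 97.5 and 47.8 CPM in M2-like libraries, with 6 markers lower in M1-like, and that of the 9 fibroblast and mesothelial markers was 89.6, 30.9 and 82 CPM and 106, 376 and 186 CPM, with 6 markers lower. In the early samples the latter sum stayed between 9.94 and 20.8 CPM, and the B cell sum was 29.1, 27.2 and 27.9 CPM in M1-like libraries beside 28.2, 10.6 and 12.5 CPM in M2-like samples. The sum of the 7 eosinophil markers was 0.611, 0.937 and 1.7 CPM in M1-like libraries beside 15.5, 16.1 and 18.1 CPM in M2-like and 16.2, 20.5 and 24.4 CPM in M0 libraries, nearly all of it from Siglecf, the only one lower by the test, while Prg2 and Ear6 had no count in the 6 late libraries. That of the 7 mast cell markers was 1.1, 1.07 and 0.189 CPM and 3.51, 10.2 and 3.64 CPM, with 3 lower and its highest value in the M2-like library of replicate 2. The 8 neutrophil markers summed to 77.3, 69 and 73.1 CPM and 93.4, 82.4 and 96.3 CPM, with 1 higher, 1 lower and no count of Ly6g or Retnlg, and the 10 T and NK cell markers to 2.44, 3.01 and 4.23 CPM and 0.93, 1.68 and 1.06 CPM, with 1 higher and no count of Cd3e. The 7 dendritic cell markers stayed between 3.50 and 7.26 CPM, with 2 higher, 2 lower and no count of Siglech, and the 8 markers of resident peritoneal macrophages lay at 52.1, 50.4 and 39.7 CPM against 127, 161 and 98.3 CPM, with 1 higher and 3 lower. The part of other cells in the differences described below was not tested. Fewer cells of a type and less RNA per cell cannot be told apart in such bulk libraries.

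In the late comparison, Nos2 and Serpina3f had the largest increases and Slco2b1 and Retnla the largest decreases in M1-like macrophages. Of 14172 genes tested, M1-like macrophages had a higher level in 4429 (31.3%) and a lower level in 4282 (30.2%), called by the quasi-likelihood test of edgeR with an adjusted p below 0.05. The median log2 fold change over all genes tested was 0.03. With library totals in place of TMM library sizes, a scaling chosen after seeing the data, this median was 0.22 and 6200 genes were higher and 3123 lower, so that differences of this size depend on the scaling. In the early comparison 34.6% of 16110 genes were higher and 38.1% lower in M1-like macrophages, with 3222 higher and 9795 lower genes by library totals and a median of -0.49 in place of -0.06.

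Nos2 (ENSMUSG00000020826, chromosome 11, 78920787 to 78960254 on GRCm38) had 824, 654 and 639.9 CPM in the 3 late M1-like libraries and no count in the 3 late M2-like libraries. With a floor of 3 counts over the M2-like group, this is a difference of at least 10533-fold. The M0 libraries of the same experiment held 0.146, 0.062 and 0.0682 CPM. Serpina3f, a serine protease inhibitor from a cluster of similar genes, had 45.5, 91.4 and 88 CPM in M1-like libraries and again no count in M2-like libraries, at least 1105-fold. The interleukin 12 receptor subunit Il12rb1, the uridine phosphorylase Upp1 and the ubiquitin-like modifier Ubd likewise had no count in M2-like libraries, with at least 428, 295 and 297-fold higher levels in M1-like libraries. The guanylate-binding protein gene Gbp4 reached 236, 372 and 285 CPM against 3 counts over the M2-like libraries, a ratio of 4389.7 (95% counting interval 1502 to 21288). The chemokine Cxcl9 reached 77, 49.5 and 65.5 CPM against 1 count, and the interferon-inducible GTPase Iigp1 472, 676 and 673 CPM against 0.644, 0.451 and 0 CPM. The log2 fold change of Iigp1 was 10.69 (standard error, SE, 0.37, adjusted p = 1.40e-21). Counting intervals and floors cover counting error only.

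Among the largest decreases, Slco2b1, an organic anion transporter, had 30.6, 43.2 and 39 CPM in late M2-like libraries and no count in M1-like libraries, at least 594-fold. Retnla, the resistin-like protein secreted by alternatively activated macrophages (ENSMUSG00000061100, chromosome 16, 48842551 to 48844461), had 256, 441 and 222 CPM in the M2-like libraries. The M1-like libraries held 0.366, 0.402 and 0.0631 CPM and the M0 libraries 10.03, 12.5 and 10.9 CPM. Late M1-like libraries thus lay below M0 as well as below M2-like libraries, whereas in the early samples M1-like macrophages had 18.4, 20.6 and 21.4 CPM beside 25.7, 22.6 and 22 CPM in M0. The log2 fold change of Retnla was -10.08 late (SE 0.90, adjusted p = 1.92e-11) and -3.52 early, and the difference of -6.54 passed its own test (adjusted p = 4.07e-06). Chil3, a chitinase-like protein, had 1007, 959 and 875 CPM against 4.88, 5.29 and 5.55 CPM, a log2 fold change of -7.50 late and -8.43 early. The neutral sphingomyelinase Smpd3, the ribonuclease Ear2, the GABA receptor subunit Gabbr2, the Fc receptor-like gene Fcrls and the lectin Mgl2 completed the 8 largest decreases, with late log2 fold changes from -9.05 to -6.45. All 16 genes kept the sign of their early difference, and each had the late sign in mock transfected cells as well, with fitted mock log2 fold changes, which depend on the prior count where a group has no count, from 6.02 to 11.38 for the 8 increases and from -11.81 to -5.73 for the 8 decreases.

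Serpina3f and Retnla are shown with their proximal promoters because they stand at opposite ends of the late comparison and hold letters that STAT factors are known to bind, and Abca1, described below, is shown as a gene of opposite late and early direction. The letters TTCNNNGAA and TTCNNNNGAA were searched on both strands in the 250 bases before the RefSeq gene start (GRCm38.p6), where 7.02% and 5.85% of 32851 windows hold them, and CACGTG, which 6.02% hold. The sequences are from RefSeq, in the direction of transcription, with the letters found in capitals, starting 121 (Serpina3f), 145 (Retnla) and 147 (Abca1) bases before the gene start. The RefSeq start of Retnla lies inside the gene interval given above. A match is a description of these letters only.
Serpina3f, chr12:104214294-104214543, plus strand: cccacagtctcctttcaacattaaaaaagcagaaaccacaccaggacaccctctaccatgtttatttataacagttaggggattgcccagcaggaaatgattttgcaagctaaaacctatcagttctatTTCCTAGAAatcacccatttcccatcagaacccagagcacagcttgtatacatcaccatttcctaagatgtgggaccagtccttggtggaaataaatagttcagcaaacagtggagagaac
Retnla, chr16:48842359-48842608, plus strand: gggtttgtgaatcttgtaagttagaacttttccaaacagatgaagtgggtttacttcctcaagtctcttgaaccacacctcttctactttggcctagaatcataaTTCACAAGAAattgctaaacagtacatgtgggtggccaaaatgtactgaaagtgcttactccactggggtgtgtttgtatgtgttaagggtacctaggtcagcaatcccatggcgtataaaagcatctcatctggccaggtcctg
Abca1, chr4:53159896-53160145, minus strand: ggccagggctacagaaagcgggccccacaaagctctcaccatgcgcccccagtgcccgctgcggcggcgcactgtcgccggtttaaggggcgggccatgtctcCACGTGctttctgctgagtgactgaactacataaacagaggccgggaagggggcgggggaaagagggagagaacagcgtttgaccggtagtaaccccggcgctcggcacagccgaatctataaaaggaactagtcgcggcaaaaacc
Of the 8 largest late increases 4 had a promoter in the table used, and 1 of them held TTCNNNGAA. Of the 8 largest decreases 7 had one, with TTCNNNGAA in Chil3 and Slco2b1 and TTCNNNNGAA in Retnla. TCACNCCAC, a sterol regulatory letter string held by 1.05% of all windows, was found in none of the 24 promoters of the named genes of largest or opposite change.

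**Figure D1:**
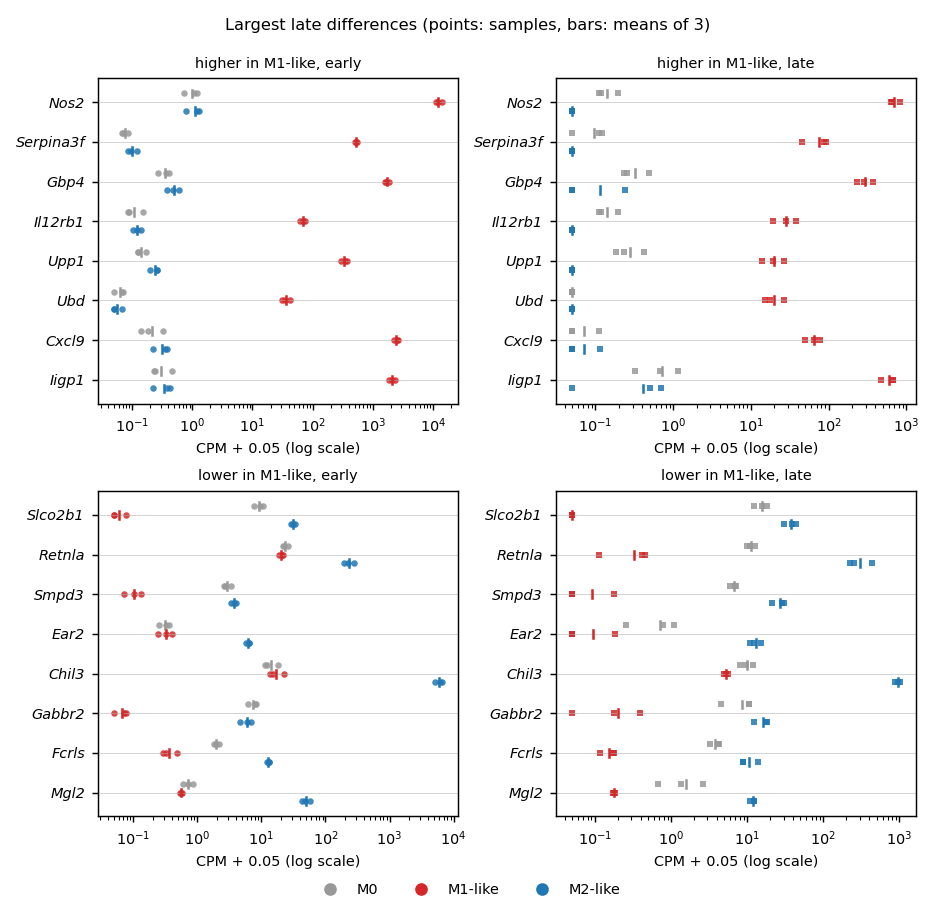
CPM plus 0.05 on a log scale of the 8 largest late increases (upper panels) and 8 largest late decreases (lower panels) in M1-like macrophages, early on the left and late on the right. Points are samples (3 per group), vertical bars are means, grey is M0, red M1-like and blue M2-like. Points at 0.05 are samples without a count, as for Nos2 in the 3 late M2-like libraries.

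Of 10242 genes called early and tested in all comparisons, 50.4% were also called late in the same direction, and a smaller number in the opposite one. Kept and reversed genes are those called in both comparisons, with the same or the opposite sign. Of 13648 genes tested in the late and early comparisons and in the test of their difference, 5162 (37.8%) kept their direction, 2577 toward M1-like and 2585 toward the M2-like state. In 1495 genes (11.0%) the direction reversed, 651 from higher to lower and 844 from lower to higher in M1-like macrophages. The direction was lost in 2417 genes (17.7%), which were called early, not called late and differed between late and early, and it was gained in 1271 genes (9.31%), called late only and with a called difference. The difference between late and early itself passed the test in 51.3% of 15835 genes. In 1654 genes called in only 1 of the comparisons no difference was called, and 1649 were called in neither. Where a kept direction came with a called difference, the late change was smaller than the early change in 1074 of 1352 genes higher in M1-like macrophages and in 914 of 1289 genes higher in M2-like macrophages.

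Genes with large early differences seldom changed direction. Among genes at least 4 log2 units higher in early M1-like macrophages and tested in all comparisons, 278 of 321 (86.6%) kept their direction, 35 lost it and 4 reversed. Among those as much higher in early M2-like macrophages 183 of 204 (89.7%) kept it, 18 lost it and 2 reversed. Below 1 log2 unit, 16.2% of the 2914 genes higher in M1-like and 20.4% of the 3186 genes higher in M2-like macrophages reversed. The scaling bears on the reversed genes in particular. By library totals 2900 genes reversed toward M1-like and 174 toward M2-like, all 844 and 174 of the 651 genes reversed by TMM among them, and where both log2 fold changes were asked to reach 1 in size, 69 and 89 genes reversed. The numbers of genes that reversed toward M1-like and toward M2-like macrophages therefore both depend on the scaling.

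Libraries of mock transfected macrophages are not part of the late contrast but of the same model of 36 libraries, so that they share its estimate of the spread and its filter. A model of the compared libraries alone called 3439 genes higher and 3501 lower late. The mock libraries were compared in the same way, with 30.9% of genes higher and 29.8% lower in M1-like macrophages. Of the 1495 reversed genes 1473 had the late sign in the mock libraries, 1247 were called in that direction and 1 was called in the other. Of the 1271 gained genes 1102 were called with the late sign. Of the 2417 lost genes 224 were called in their early direction in mock libraries. The labels do not say whether mock and untransfected libraries of the same number came from the same animals.

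**Figure D2:**
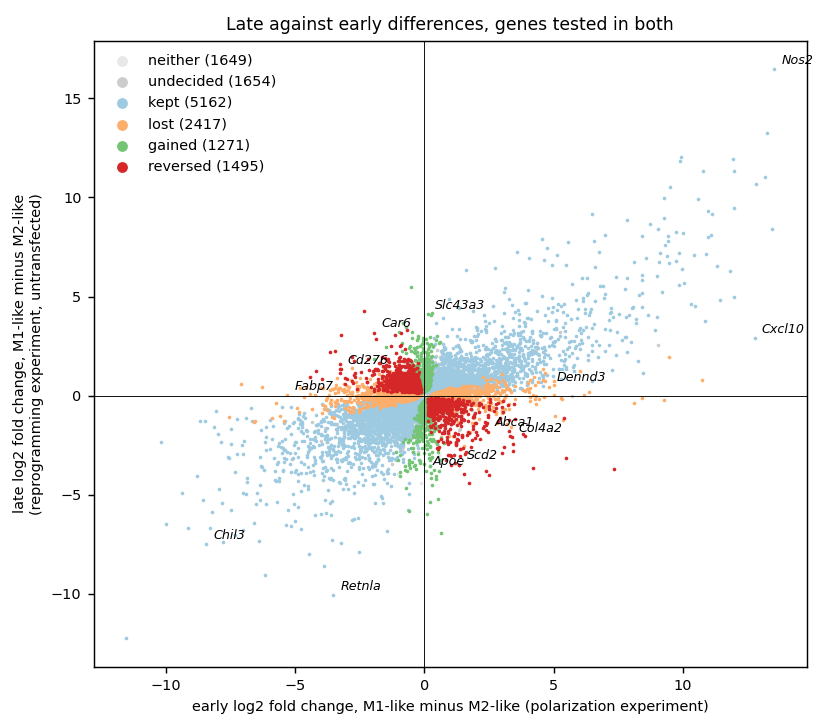
Late (vertical axis) against early (horizontal axis) log2 fold change between M1-like and M2-like macrophages for 13648 genes, each point 1 gene, coloured by direction class with the number of genes in the legend. The 1495 reversed genes (red) fill the upper left and lower right quadrants and lie mostly near the origin, with a few named genes such as Scd2, Abca1, Car6 and Cd276 farther out.

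Genes that were higher in M1-like macrophages early and lower late included the cholesterol exporter Abca1, the fatty acid desaturase Scd2 and the iron exporter Slc40a1. Abca1 (ENSMUSG00000015243, chromosome 4, 53030787 to 53159895 on GRCm38) had 678, 453 and 416 CPM in early M1-like and 109.6, 92.8 and 78.5 CPM in early M2-like samples. In the late libraries it had 119, 184 and 122 CPM in M1-like libraries beside 504, 589.9 and 412 CPM in M2-like macrophages, with 117, 120.2 and 90.4 CPM in M0. The groups did not overlap in either experiment, and the group that stood far above M0 was M1-like early and M2-like late. The log2 fold change was 2.46 early and -1.83 late (SE 0.17, adjusted p = 3.76e-11). Scd2, which makes monounsaturated from saturated fatty acids (chromosome 19, 44293674 to 44306864), had 149, 109 and 79.9 CPM against 51.1, 42.3 and 38.6 CPM early and 45.4, 24.6 and 31.3 CPM against 334, 419.6 and 391 CPM late. Here the late M1-like libraries overlapped or lay below the M0 libraries (43.5, 46.8 and 42 CPM) and the M2-like libraries above them. Its log2 fold change went from 1.35 to -3.50 (SE 0.25, adjusted p = 1.00e-13), with a difference between late and early of -4.82.

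Slc40a1, ferroportin, was expressed at 5.65, 7.2 and 7.43 CPM in early M1-like and 2.64, 2.4 and 2.32 CPM in early M2-like samples, and at 1.28, 1.41 and 1.39 CPM against 5.44, 5.61 and 6.02 CPM late. In the late libraries it was M1-like macrophages that stood apart from M0, which held 4.61, 5.46 and 4.64 CPM. Igsf6, a surface protein of the immunoglobulin superfamily, went from 528, 526 and 501 CPM against 211, 179 and 169 CPM early to 60.9, 85 and 68.9 CPM against 324, 288 and 314 CPM late, with a late log2 fold change of -2.11 (SE 0.09, adjusted p = 9.78e-20). Igsf6 thus lay above M0 (192, 197 and 187 CPM) in early M1-like samples and below M0 (203, 206 and 182 CPM) in late M1-like libraries. Ikbke, a kinase upstream of interferon regulatory factors, changed from 1.41 to -1.33, and the growth factor gene Bmp2 from 2.17 to -2.17 on the log2 scale. Both reversed their direction without an overlap of the groups in either experiment.

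The other 4 of the 10 genes, Col4a2 (a basement membrane collagen), Fscn1 (an actin bundling protein), Unc5b (a netrin receptor) and Ighm (the immunoglobulin M heavy chain), are also expressed by other cells of the peritoneal cavity. Col4a2 had 4.11, 3.88 and 4.14 CPM against 0.37, 0.336 and 0.453 CPM early and 1.47, 0.87 and 1.58 CPM against 2.29, 10.2 and 4.37 CPM late, with its highest value in the M2-like library of replicate 2. The same library held the highest late values of Fscn1 (8.73, 28.6 and 16.1 CPM in the 3 M2-like libraries), Unc5b (6.22, 17.8 and 11.2 CPM) and Ighm (28, 64 and 37.6 CPM), and the highest sums of fibroblast and mesothelial markers (376 CPM) and of B cell markers (97.5 CPM). Ighm is itself 1 of the 7 B cell markers and made up most of their sum in this library. Its value and that sum are therefore not separate observations. Without the M2-like library of replicate 2 all 4 genes still reversed, and the part of other cells in these values was not tested. Late log2 fold changes were -2.10 for Col4a2, -2.61 for Fscn1, -1.23 for Unc5b and -2.25 for Ighm (SE 0.73, adjusted p = 0.00823). In mock libraries Ighm had -0.67 (adjusted p = 0.452), while the other 9 genes passed the test with the late sign, from -3.61 to -1.51. All 10 genes reversed under each of the 21 alternatives tried, library totals among them. They were chosen in the same data for large differences without overlap, so that this carries no independent support.

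Among genes lower in M1-like macrophages early and higher late, the largest change was that of Car6, a secreted carbonic anhydrase, and several code for surface proteins with immune functions. Car6 (chromosome 4, 150187015 to 150201332) had 8.11, 5.52 and 8.24 CPM in early M1-like and 30.6, 23.5 and 30.1 CPM in early M2-like samples, and 3.72, 5.69 and 7.07 CPM against 0.286, 1.23 and 0.265 CPM late. The M2-like macrophages stood apart from M0 in both experiments, above it early (9.02, 6.97 and 11.2 CPM in M0) and below it late (3.0, 4.65 and 4.43 CPM). Its log2 fold change was -1.94 early and 3.17 late (SE 0.42, adjusted p = 7.60e-08). Mr1 (chromosome 1, 155127277 to 155146814), which presents microbial vitamin metabolites to T cells, had 6.08, 6.84 and 6.01 CPM against 21.9, 18.1 and 18.7 CPM early and 99.2, 72.3 and 76.4 CPM against 22, 20.2 and 22 CPM late. Its M2-like and M0 levels lay close to each other in both experiments, and the M1-like samples lay below M0 (23.2, 22 and 22 CPM) early and above M0 (23.7, 23.6 and 23.4 CPM) late.

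Cd276 and Havcr2 code for the checkpoint proteins B7-H3 and TIM-3. Cd276 had 0.54, 0.46 and 0.603 CPM in early M1-like and 4.56, 5.42 and 5.26 CPM in early M2-like samples, and 19.8, 14.7 and 20.7 CPM against 7.08, 8.7 and 6.08 CPM late, a log2 fold change of -3.24 early and 1.33 late (adjusted p = 1.05e-08). Havcr2 had 3.19, 3.12 and 4.37 CPM against 22.7, 22.5 and 24.4 CPM early and 27, 29.5 and 34.3 CPM against 15.3, 12 and 13.8 CPM late, with -2.69 and 1.15. For both genes the early M1-like samples lay below all M0 samples and the late M2-like libraries below all M0 libraries, while late M1-like libraries lay above M0 for Cd276 (10.2, 12.2 and 13.5 CPM in M0) and overlapped it for Havcr2 (24.9, 21.8 and 27.4 CPM). Ptgir, the prostacyclin receptor, went from 46, 50.6 and 56.1 CPM against 187, 188 and 194 CPM early to 107, 89.7 and 101 CPM against 44.9, 39.5 and 39.3 CPM late. The remaining genes were the tubulin polyglutamylase Ttll11, the glutathione transferase Gstt2, the acylphosphatase Acyp1, the DNA polymerase Poli and the ribosomal protein gene Rpl12, with late log2 fold changes of 1.35, 1.15, 1.14, 1.51 and 1.28. Rpl12 has near-identical copies elsewhere in the genome, between which the counting can split reads, and its value is uncertain. In mock libraries all 10 genes passed the test with the late sign, from 1.03 for Ttll11 to 4.09 for Car6. All 10 reversed under each of the 21 alternatives, except that Car6 was not tested where at least 10 counts were asked of every library. These genes were chosen in the same data for large differences without overlap, so that this carries no independent support. By library totals all 844 genes of this direction stayed reversed.

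**Figure D3:**
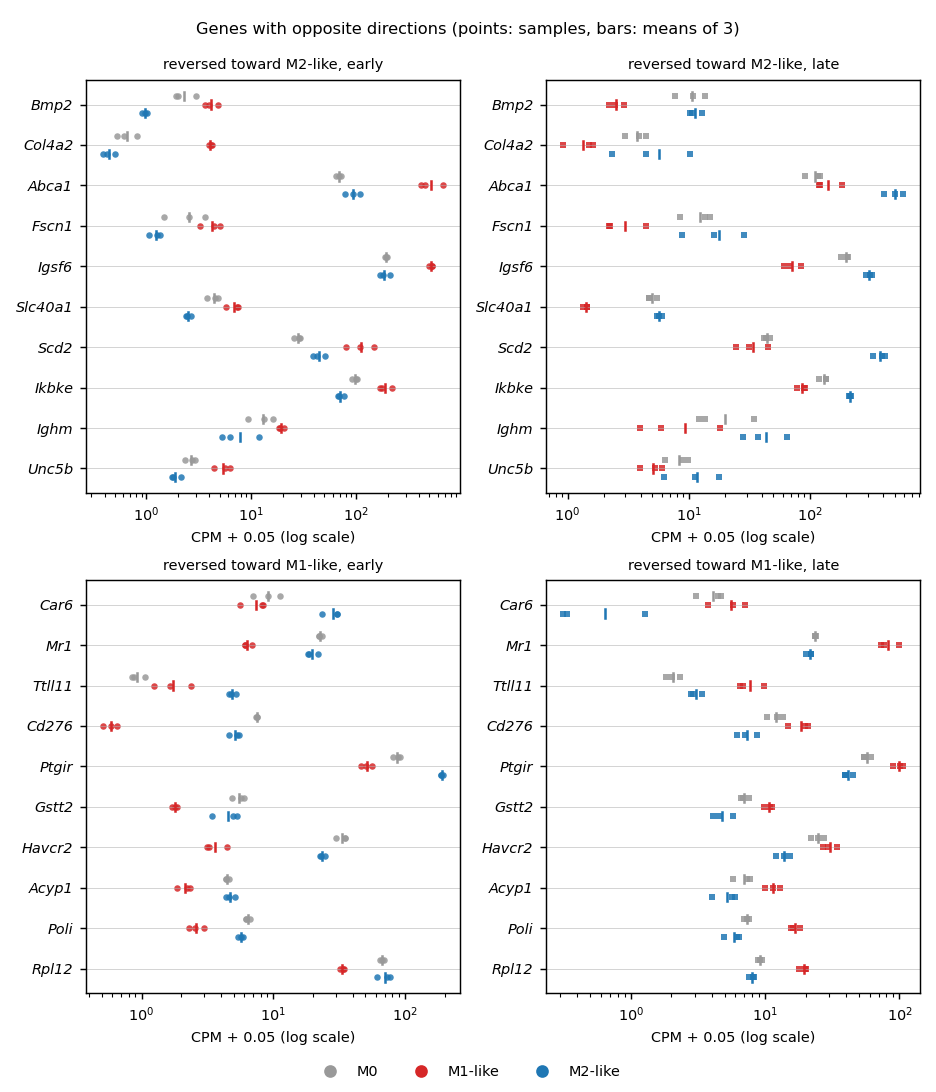
CPM plus 0.05 on a log scale of the 10 genes that reversed toward M2-like (upper panels) and the 10 that reversed toward M1-like macrophages (lower panels), early on the left and late on the right. Points are samples (3 per group) and vertical bars means, in grey for M0, red for M1-like and blue for M2-like. Red and blue exchange their order between left and right for every gene without overlapping.

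Genes of the lost class were by definition not called late, and those with the largest early differences are described here. Several of them, such as Dennd3, had late levels that overlapped between M1-like and M2-like libraries. Dennd3, an activator of Rab GTPases, had 57.1, 56.5 and 56.5 CPM in early M1-like and 1.67, 2.46 and 1.79 CPM in early M2-like samples but 12.6, 6.02 and 7.19 CPM against 6.58, 7.22 and 5.16 CPM late. The late groups overlapped, with 0.45 (adjusted p = 0.0686) on the log2 scale after 4.83 early, a difference of -4.35. Slc7a11, which exchanges glutamate for cystine, had 612, 458 and 416 CPM against 63, 47.2 and 46.7 CPM early and 18, 31.1 and 17.3 CPM against 19.6, 18.7 and 12.8 CPM late. The late groups overlapped again, with 0.38 after 3.24. The serine protease Htra1, the netrin Ntng2, the adhesion receptor Nectin2, the exchange factor Psd, Tmem171 and Lst1 completed the 8 largest early increases that were lost, with early log2 fold changes from 3.16 to 4.06 and late ones from -0.45 to 0.54. A late p-value that missed the threshold does not show equal levels, and by library totals 6 of these 8 genes (all but Tmem171 and Psd) were called higher in late M1-like macrophages, and so were of the kept class. Without the M1-like library of replicate 2, Dennd3, Htra1 and Lst1 were of the kept class and Psd reversed. The same class was reached by Dennd3 without the M1-like library of replicate 3 and by Ntng2 without the M2-like library of replicate 2. In mock libraries the 8 genes had log2 fold changes from -0.78 to 0.51.

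On the other side, Fabp7, a fatty acid-binding protein, had 1.81, 1.53 and 2.5 CPM in early M1-like and 81.6, 70.8 and 81.7 CPM in early M2-like samples and 18.5, 20.8 and 15.2 CPM against 16.5, 16.4 and 20.5 CPM late, with -5.30 and 0.02 on the log2 scale. Both late groups lay below the late M0 libraries (50.5, 68.2 and 86.7 CPM). Cdca7l, a Myc-interacting cell division gene, had 0.756, 0.945 and 0.749 CPM against 17.4, 17.1 and 18.1 CPM early and 32.1, 22 and 25.4 CPM against 27.3, 24 and 25.2 CPM late, with the M0 libraries at 30.5, 25.1 and 29.3 CPM. Here the 3 late groups overlapped. The adhesion molecule Selp, the mitochondrial carbonic anhydrase Car5b, Tmem71, the sterol isomerase-like gene Ebpl, Trim2 and the pro-apoptotic gene Bmf had early log2 fold changes from -4.91 to -3.61 and late ones from -0.65 to 0.04, with adjusted p-values from 0.0633 to 0.759. For all 8 genes the early M1-like samples lay below every M0 sample of their experiment. By library totals 7 of the 8 stayed in the lost class, and Ebpl reversed. An early decrease was kept in Selp without the M2-like library of replicate 3, in Trim2 without the M1-like library of replicate 2 and in Bmf without that of replicate 1.

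Gained directions were strongest for Slc43a3 and Apoe. Slc43a3, a transporter of purine bases, had 6.27, 8.46 and 10.5 CPM in early M1-like and 6.62, 7.85 and 8.4 CPM in early M2-like samples, and 42.7, 36.4 and 53.7 CPM against 2.36, 2.45 and 2.84 CPM late. The early groups overlapped, the late ones did not, and the late log2 fold change was 4.11 (SE 0.23, adjusted p = 1.36e-16). Ccr1, a receptor of inflammatory chemokines, had 279, 308 and 268 CPM against 52.2, 62.3 and 48.3 CPM late, with 47.1, 58.9 and 49.8 CPM in M0. Its late M1-like libraries stood above both other groups, after an early log2 fold change of -0.04. The water and glycerol channel Aqp9, the kinesin Kif9 and the small nucleolar RNA host genes Snhg12 and Snhg6 rose as well, by 2.20, 2.26, 2.78 and 2.01 on the log2 scale.

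Apoe, the apolipoprotein that macrophages secrete (ENSMUSG00000002985, chromosome 7, 19696109 to 19699188), had 4283, 4331 and 4701 CPM in early M1-like and 3414, 4523 and 4838 CPM in early M2-like samples. In the late libraries M1-like macrophages held 965, 535 and 1216 CPM, M2-like macrophages 11629.6, 13088 and 13045 CPM and M0 macrophages 13321, 11849.7 and 13318 CPM. Late M1-like libraries thus lay far below M2-like and M0 libraries, which overlapped, and the log2 fold change was 0.06 early and -3.80 late (SE 0.21, adjusted p = 1.31e-16). Mgll, which cleaves monoglycerides, had 26.5, 27.2 and 34.8 CPM against 290.2, 241 and 307 CPM late and the phosphatase Acp5 26.2, 22.4 and 22.2 CPM against 207, 179.6 and 212 CPM, and in both the M2-like libraries stood above M0 and the M1-like libraries below it. Lrrc32, Il12rb2 and Bcam fell by 3.39, 3.25 and 2.51 on the log2 scale. In mock libraries the 12 gained genes passed the test with the late sign. By library totals Snhg12, Ccr1, Aqp9 and Snhg6 were called lower in early M1-like macrophages and were therefore reversed, and Apoe, Lrrc32 and Mgll kept an early decrease. Mgll also kept one with the replicate block. Without the early M1-like sample of mouse 1, Slc43a3 and Kif9 were called higher early. Acp5 was called higher early, and hence reversed, by DESeq2, by RLE scaling and without the filter on low counts. The same held for Acp5 without the early M1-like or M2-like sample of mouse 3.

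**Figure D4:**
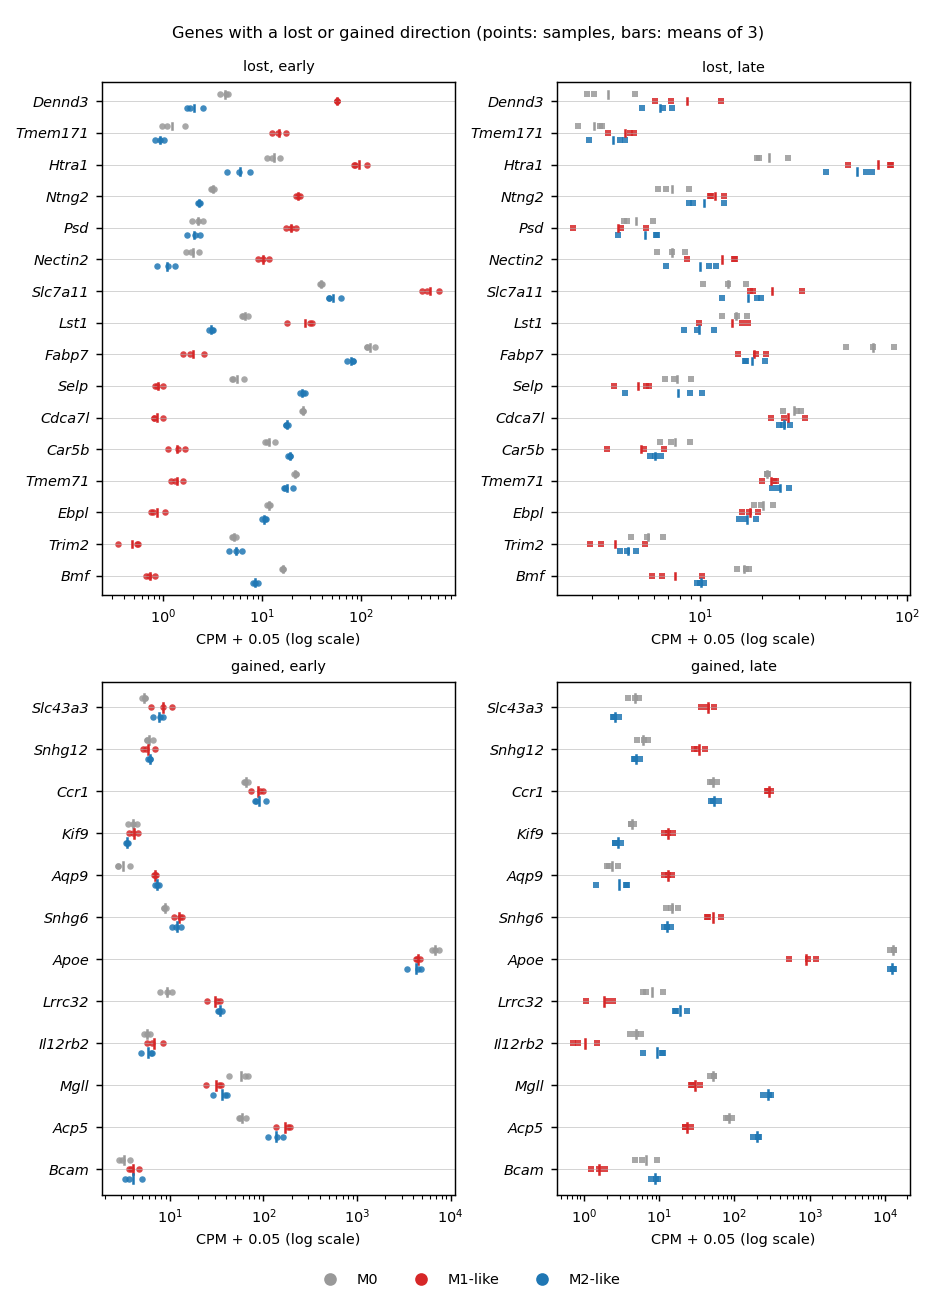
CPM plus 0.05 on a log scale of 16 genes with a lost direction (upper panels) and 12 with a gained direction (lower panels), early on the left and late on the right. Points are samples (3 per group) and vertical bars means, in grey for M0, red for M1-like and blue for M2-like. Red and blue are apart on the left and close together on the right for lost genes, and the opposite holds for gained genes.

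In the gene lists, values in parentheses are late log2 fold changes, M1-like minus M2-like, unless an early value stands before them. Over all genes tested late, 31.3% were higher and 30.2% lower in M1-like macrophages. Late and early medians of a list are each taken over the members tested in that comparison, so that their sets can differ. Inflammatory mediators kept their direction with smaller late differences. Of 20 tested members of the list of NF-κB targets and inflammatory cytokines 18 were higher in late M1-like macrophages by edgeR's test, with a median log2 fold change of 1.83, beside 0.03 over all genes, and 13 of them with a called decrease in size from the early comparison, whose median was 5.11. In mock libraries 11 of the 20 were higher and none lower, with a median of 1.14. Tnf had 27, 37.8 and 34.7 CPM in late M1-like and 7.3, 5.93 and 8.0 CPM in late M2-like libraries, a log2 fold change of 2.23 (adjusted p = 4.20e-11) after 6.99 early. Il6, Il1b and Il12b, the classical cytokines of LPS-stimulated macrophages, were near the limit of detection in the late libraries, with 2, 2 and 0 counts over the 3 M2-like libraries. In the M1-like libraries Il6 had 1.28, 0.402 and 1.01 CPM, Il1b had 0.977, 4.42 and 0.568 CPM and Il12b had 0.305, 0.803 and 0.694 CPM. The ratio for Il6 was 20.3 (95% counting interval 5.3 to 173) and the floor gives at least 8.83-fold for Il12b. Il10, the anti-inflammatory cytokine, lost its direction (3.01 early, -0.90 late), at under 1 CPM in all samples of both comparisons.

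Of 21 tested chemokine genes 9 (42.9%) were higher and 5 (23.8%) lower in late M1-like macrophages, beside 31.3% and 30.2% of all genes. Ccl3 reversed, from 20.5, 28.1 and 34.5 CPM against 9.29, 8.94 and 8.98 CPM early to 36.1, 32.7 and 28.2 CPM against 63.5, 50.7 and 53.2 CPM late (-0.79, adjusted p = 1.98e-06). The related Ccl4 and the neutrophil chemoattractants Cxcl1, Cxcl3 and Cxcl5 lost their direction, with late log2 fold changes of 0.67, -0.20, 0.79 and -0.42 after 2.91, 4.43, 4.09 and 4.33. Ccl4 kept its direction by library totals, without the filter on low counts, and with only the compared or only the untransfected libraries in the model. Cxcl3 was no longer of the lost class by DESeq2, by library totals, or without any of 5 single samples (late M1-like replicates 1 and 3, late M2-like replicate 2, early M2-like mice 2 and 3), since the difference was then not called. The T cell chemoattractants Cxcl9 and Ccl5 kept log2 fold changes of 11.05 and 9.19, while that of Cxcl10 went from 12.78 to 2.89. Ccl8 (5.34) was higher and Ccl6 (-3.42), Ccl9 (-5.98) and Cxcl13 (-3.70) were lower in late M1-like macrophages.

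Interferon-stimulated genes were higher in untransfected M1-like macrophages, but fewer were so in mock transfected cells. Of 32 interferon-stimulated genes 31 were higher in late M1-like macrophages (median 2.77, early 5.17), and 29 of these had a called decrease in size. The exception was Isg20, an exonuclease, with 2.99, 1.67 and 2.71 CPM in M1-like libraries beside 3.29, 2.71 and 2.45 CPM in M2-like libraries and -0.18 after 5.32. In the mock libraries 11 of the 32 genes were higher and 9 lower in M1-like macrophages, with a median log2 fold change of -0.17 and 17 genes at or below 0. The RNA-binding protein Ifit2 had 275, 339.8 and 295 CPM in untransfected M1-like and 4.58, 1.68 and 2.65 CPM in untransfected M2-like libraries, but 329, 357 and 355 CPM and 57.6, 167 and 157 CPM after mock transfection. Irf7, a regulator of type I interferon genes, had 344, 387 and 357 CPM against 10.3, 8.31 and 7.67 CPM untransfected and 348, 399 and 378 CPM against 121, 285 and 241 CPM mock transfected. For both genes the M2-like libraries lay much higher with mock transfection than without, whereas the M1-like libraries with and without it overlapped. Late and mock log2 fold changes were 4.09 and -0.19 for Ifit1, 4.48 and -0.76 for Ifit3, 4.05 and -0.37 for the antiviral GTPase Mx1, and 2.49 and -1.12 for the oligoadenylate synthetase Oas2. The difference between the late and mock comparisons was not tested. All 13 tested guanylate-binding proteins and immunity-related GTPases were higher (median 5.96, early 6.58), 6 of them with a called decrease and Gbp8 with a called increase in size, and all 13 were higher in mock libraries too (median 4.76). Similar counts were found for antigen presentation, with 14 of 16 genes of the class I pathway and 9 of 10 genes of the class II pathway higher and Calr lower, and only H2-DMb2 (2.53 early, 0.28 late) in the lost class. Of 17 co-stimulatory and checkpoint genes 12 were higher, led by Tnfsf14, Cd86 (4.84) and Cd40 (4.19), and 5 lower, and Cd83, a marker of activated antigen-presenting cells, reversed toward M2-like (2.11 to -0.47) while Havcr2 reversed toward M1-like macrophages. By library totals the numbers of higher and lower genes were the same for the interferon lists, class I, class II and co-stimulatory genes, and 1 class I gene was of the lost class. In mock libraries 14, 10 and 11 genes of the last 3 lists were higher.

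Genes of alternative activation by IL4 also mostly kept their direction, with 22 of 31 lower and 4 higher in late M1-like macrophages. The median was -2.12 late and -3.22 early, the latter over the 34 genes tested early. Mrc1, the mannose receptor, had 348, 365 and 287 CPM in M2-like libraries beside 28.3, 22.1 and 18.6 CPM in M1-like libraries, -3.85 after -7.33. Arg1, arginase 1, did not follow. It had 276, 87.6 and 103 CPM against 524, 414 and 474 CPM in early M1-like and M2-like samples and 76.1, 136 and 35.3 CPM against 17.5, 64.1 and 9.59 CPM late, with M0 at 72.2, 28.7 and 13.8 CPM. The late groups overlapped (log2 fold change 1.43, standard error 0.67, adjusted p = 0.0637), and the early decrease of -1.60 was lost, with a difference of 3.07 (adjusted p = 0.00378). Arg1 was called higher in late M1-like macrophages, hence reversed, by library totals, with the replicate block, without the filter on low counts, without M1-like replicate 3 and without M2-like replicate 2. Cish, a feedback inhibitor of STAT signalling, was higher in M1-like macrophages in both, 0.39 early and 2.88 late, of the gained class by library totals. Flt1 lost its direction (-3.47 to -0.55), but kept it by DESeq2, without the filter on low counts, without M1-like replicate 2 and without M2-like replicate 2. Of the genes targeted by siRNA pools elsewhere in the study, Pparg (-2.46, early -7.47) and Myc (-3.09, early -4.89) were lower in late M1-like macrophages, and E2f1 (0.11) and Stat6 (0.06) did not pass the test, though both did by library totals, at 0.30 and 0.26.

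Metabolic genes differed by pathway. Of 23 genes from glucose to lactate 18 were higher and 4 lower in late M1-like macrophages (median 0.90, early 2.35), with the lactate exporter Slc16a3 at 197, 276 and 255 CPM against 36.1, 35.1 and 40.2 CPM (2.71). Both aldolases reversed, Aldoa from 1.46 to -0.32 and Aldoc from 2.11 to -0.85, although by library totals Aldoa was lost and not reversed. The enolase Eno3 (1.85) and the transporter Slc16a1 (1.46) gained a direction. By library totals no gene of the list gained one and 2 reversed toward M1-like macrophages, Eno3 among them. Of 13 genes of the HIF and angiogenesis list 10 (76.9%) were higher, all 10 with a called decrease in size, and 2 (15.4%) were lower. Adm, which codes for the vasodilator adrenomedullin, lost its early log2 fold change of 9.28. It had 0.305, 0.201 and 0.126 CPM in late M1-like and 0.286, 0.193 and 0.265 CPM in late M2-like libraries. Acod1, which makes itaconate, kept a log2 fold change of 8.19 (early 10.02), and Ass1, which recycles citrulline to arginine, 4.68. Odc1, the first enzyme of polyamine synthesis, gained one of 1.56, a reversal by library totals. Of the 8 genes that lead to inosine monophosphate, all of them lower in early M1-like macrophages, 3 remained lower, 3 lost their direction and Prps1 (-1.78 to 0.48) and Adsl (-0.30 to 0.35) reversed, Adsl not without late M1-like replicate 2 or with only the compared libraries in the model. By library totals 2 of the 8 kept their direction, 2 lost it and 4 reversed, Prps2 and Pfas too, and Prps2 also reversed without late M1-like replicate 2 and without the filter on low counts. Of 27 genes of the citrate cycle 7 (25.9%) were higher and 11 (40.7%) lower, beside 31.3% and 30.2% of all genes, against 10 and 8 by library totals, where 8 of them reversed.

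The genes of cholesterol and fatty acid synthesis formed the list with the largest share of late decreases. Of 32 tested genes 31 were lower in late M1-like macrophages (29 by library totals), with a median log2 fold change of -1.46, whereas 21 of 30 were lower and 7 higher early. Scd1, the relative of Scd2, had 2.02, 1.54 and 2.46 CPM in late M1-like against 61.5, 65.9 and 60.2 CPM in late M2-like libraries, with M0 at 5.34, 7.88 and 5.25 CPM. The late M1-like libraries lay below M0 and the M2-like libraries above it, and the log2 fold change was -4.95 (SE 0.28, adjusted p = 2.66e-16) after -0.59 early. Fatty acid synthase, Fasn, had a late log2 fold change of -3.25 and the desaturase Fads1 -2.98. In this list 6 genes reversed from higher to lower in M1-like macrophages, Scd2 among them. Insig1 and Srebf1, regulators of the same pathway, and Pmvk and Mvd reversed as well, with early increases of 0.25, 0.62, 0.29 and 0.30, and by library totals none of these 4 was reversed, while Scd2 was. Insig1, Pmvk and Mvd also left the reversed class when 1 sample was left out, Insig1 and Pmvk without early mouse 1 of either group, Insig1 also without early mouse 2 of either group or M2-like mouse 3, and Mvd without late M1-like replicate 2 or M2-like replicate 3. In 10 of the kept genes the late decrease was called larger than the early decrease, and in 4 smaller.

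Genes of the list of liver X receptors (LXR), which sense oxysterols, and of cholesterol efflux were mostly lower in late M1-like macrophages. Besides LXR targets the list holds the receptors themselves and genes of oxysterol synthesis and cholesterol transport. Of 13 tested genes 8 (61.5%) were lower and 4 (30.8%) higher in late M1-like macrophages (median -1.12), with the same counts by library totals. The 4 higher genes were Nr1h2, which codes for the receptor LXRβ, Ch25h, Npc1 and Npc2. In the early comparison 7 were higher and 3 lower by TMM (median 0.33). By library totals the early median over all genes was -0.49 in place of -0.06. Nr1h3, which codes for the receptor LXRα, had 76.1, 89.5 and 93.2 CPM against 46.5, 55.2 and 57.2 CPM early and 16.9, 27.2 and 28.7 CPM against 82, 89.7 and 99.5 CPM late, a reversal from 0.70 to -1.90 (adjusted p = 2.28e-14). Abca1, Mylip (1.08 to -0.90) and Lpcat3 (0.33 to -1.11) reversed in the same direction, Lpcat3 not by library totals, and Abcg1 (-1.13), Pltp (-1.75) and Apoe gained a decrease. By library totals 7 of the 13 genes kept their direction, against 4 by TMM. The decreases of Abcg1, Pltp and Apoe were then kept, and only Lpcat3 gained one. Ch25h, which makes an oxysterol, was higher (3.43), and the lysosomal cholesterol transporters Npc2 (1.0) and Npc1 (0.24) were higher too, Npc1 after an early decrease, although with only the compared libraries in the model Npc1 lost its direction.

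Of 20 complement genes 8 (40%) were higher and 11 (55%) lower in late M1-like macrophages, beside 31.3% and 30.2% of all genes. The initiating subunit C1qb reversed, from 294, 297 and 308 CPM against 166, 188 and 181 CPM early to 234, 245 and 291 CPM against 791, 1085 and 979.6 CPM late (-1.89, adjusted p = 2.41e-12), and C1qa (-2.0) and C1qc (-1.78) gained a decrease. The proteases and central components C1ra (4.05), C2 (2.85), C3 (2.95) and Cfb (5.66) remained higher in M1-like macrophages. Vsig4, a complement receptor of resident macrophages, was lower, with 0.977, 0.134 and 0.505 CPM against 20.6, 22.8 and 16.4 CPM. Of the 11 decreases 7 were kept and 3 gained, whereas by library totals none was gained and 18 of the 20 genes kept their direction. Of 22 scavenger and efferocytosis receptors 15 (68.2%) were lower and 5 (22.7%) higher. Mertk, the receptor for apoptotic cells, reversed from 603, 605 and 633 CPM against 71.4, 75.5 and 79.7 CPM to 121, 126 and 114 CPM against 186, 184 and 164 CPM (3.02 to -0.56). Stab1 reversed too (0.97 to -0.82), though not without the M2-like library of replicate 2. 

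Of 23 iron and antioxidant genes 7 reversed, beside 11.0% of all genes, and 4 by library totals. The 7 were Slc40a1, the metallothionein Mt1 and the 5 genes Gsr, Srxn1, Txnrd1, Sod1 and G6pdx of glutathione, thioredoxin, superoxide and NADPH metabolism, in which early log2 fold changes of 0.69 to 1.52 turned into late ones from -0.33 to -0.74. By library totals Gsr and Txnrd1 were of the lost and Mt1 of the gained class, and Gsr lost its direction without late M1-like replicate 1 or 3. Hmox1, heme oxygenase 1, lost its direction, with 5132, 5302 and 6390.0 CPM against 591, 670.5 and 811 CPM early and 340.0, 301 and 308 CPM against 269.6, 278 and 296 CPM late. The late groups did not overlap, but the log2 fold change of 0.17 missed the threshold (adjusted p = 0.193), and by library totals it was called higher. The iron-binding protein Lcn2 (4.54) and the mitochondrial superoxide dismutase Sod2 (2.20) remained higher.

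In the cell cycle list 21 of 42 genes (50%) were lower and 2 (4.76%), Ccne1 and Ccnd2, higher in late M1-like macrophages. By library totals 16 were lower and 8 higher. In the early comparison 21 were also lower and 10 higher. Of the 42 genes 12 kept a lower level in M1-like macrophages, while 4 reversed toward M2-like. The proliferation marker Mki67 reversed, from 10.1, 13.2 and 12.1 CPM against 6.23, 4.89 and 4.33 CPM early to 7.75, 4.42 and 4.48 CPM against 8.8, 15.6 and 8.79 CPM late (-0.99, adjusted p = 0.00142), as did E2f8, Uhrf1 and Tpx2. Its highest late value was again in the M2-like library of replicate 2, without which Uhrf1 and Tpx2 lost their direction, Tpx2 also without M1-like replicate 2. By library totals E2f8 and Tpx2 did not reverse. The replicative helicase genes Mcm2, Mcm3 and Mcm6 lost their early decreases of -2.06, -1.13 and -1.21, with late values of 0.12, 0.09 and 0.18, and reversed by library totals, Mcm3 and Mcm6 also without late M1-like replicate 1 and Mcm6 without M2-like replicate 2.

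Of 30 transcription factors 12 (40%) were higher and as many lower in late M1-like macrophages, against 18 and 10 by library totals, so that the higher share depends on the scaling. Irf1 (4.60) and Batf2 (4.18) stayed high, and Nfkb1 (1.53 to 0.11), Junb (2.08 to 0.30) and Irf5 (1.24 to 0.08) lost their direction. All 3 kept it by library totals, Nfkb1 also without late M1-like replicate 1, and Junb without M1-like replicate 2 and without the filter on low counts. Maf, a factor of resident and alternatively activated macrophages, reversed from 49, 40.1 and 53.4 CPM against 27.8, 27.7 and 23.5 CPM early to 47, 61.2 and 53.3 CPM against 119, 138 and 136 CPM late (0.85 to -1.28), as did Atf3 (0.64 to -0.81). Of the negative regulators of cytokine signalling, Socs1 (4.53) and Socs3 (4.38) stayed high, and Zfp36, which destabilizes Tnf mRNA, reversed (0.96 to -1.02), while Nfkbia fell in size from 3.75 to 0.70. Of 19 genes of this list 9 (47.4%) were higher and 6 (31.6%) lower late, beside 31.3% and 30.2% of all genes. By RLE scaling and by DESeq2 7 were higher and 6 lower, and by library totals 11 and 5. In the matrix remodelling list 7 of 22 (31.8%) were higher and 9 (40.9%) lower, near the shares of 31.3% and 30.2% over all genes, with Mmp14 (2.07) higher and Mmp9 (-2.74) and Mmp12 (-2.97) lower, and in the lysosome list 7 of 30 (23.3%) were higher and 17 (56.7%) lower (12 and 16 by library totals, with 6 reversals), with the largest decreases in Lipa (-2.28) and Ctsl (-2.14). Of the 18 genes of arginine, nitric oxide and polyamine metabolism 7 (38.9%) were higher and 6 (33.3%) lower, also near the shares over all genes.

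**Figure D5:**
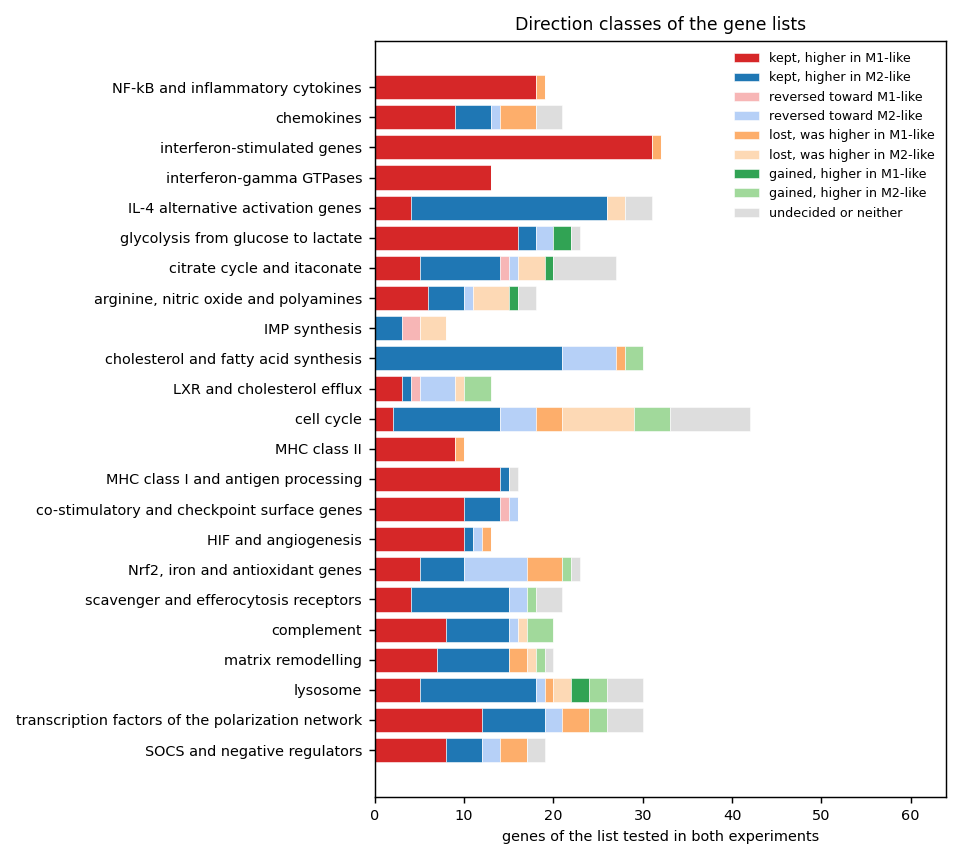
Number of genes in each direction class for 23 gene lists, counted over the members tested in both experiments. Red and dark blue are kept directions, pale red and pale blue reversals, the orange shades lost and the green shades gained directions, and grey genes that were undecided or called in neither. The interferon, GTPase and antigen presentation lists are almost wholly red, and with TMM scaling reversals toward M2-like macrophages are most numerous in the lists of iron and antioxidant genes (7), cholesterol and fatty acid synthesis (6), LXR (4) and cell cycle (4), against 4, 2, 3 and 2 by library totals.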

How the data were processed

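The deposited files hold raw counts per gene, which the authors made per the labels with Trimmomatic, TopHat2 and featureCounts on mm10. Versions and strand setting are not given in the sources used here. Counts of the 2 technical runs of each mouse of the polarization experiment were summed, giving 9 samples, and the 36 libraries of the reprogramming experiment were used as deposited. No read was realigned.

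Genes were kept by filterByExpr (minimum count 10, minimum total 15), scaled by TMM and tested with the quasi-likelihood test of edgeR 4.0.16 in R 4.3.3, with Benjamini-Hochberg adjustment. The late and mock comparisons come from a model of all 36 libraries, the early comparison from the 9 samples, and the difference between late and early from a joint model of the 45 samples as an interaction, in which batch and experiment cannot be told apart. Log2 fold changes are M1-like minus M2-like. CPM was computed with TMM library sizes. Classes were assigned at an adjusted p-value under 0.05. No model had the replicate number as a block. In the early samples the numbers name mice, and deviations of same-numbered samples from their group means correlated at 0.327, 0.332 and 0.210, so that they are paired, and a fit with the block is given as an alternative.

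Alternatives were RLE scaling, DESeq2 1.42.0, no filter, at least 10 counts in every library compared, only the compared libraries in the model, thinning the early samples to the late depth (1 random draw, with which borderline classes vary), a log2 fold change that reaches 1 in size, a replicate block and leaving out each sample. Library totals, and the 9 untransfected libraries alone, were added after the data were seen. The scripts were tested on simulated data. The members and gene lists were chosen with earlier results of these data known. Named genes were those with the 8 largest late changes each way, 10 reversals, 8 lost and 6 gained directions each way, ranked by the size of change among separated or called genes with at least 2 for log2 of the mean CPM, and in each list the 4 largest called changes and all reversals and losses, besides fixed polarization markers and siRNA targets. Abcg1, C1qa, C1qc, C2, C3, Calr, Ccl6, Ccnd2, Ccne1, Cxcl10, Cxcl13, Fads1, Fasn, Gbp8, Ifit1, Ifit3, Mmp14, Mmp9, Mx1, Nfkbia, Npc2, Oas2, Pltp and Slc16a1 were named after their values were seen. Promoter sequences are from RefSeq on GRCm38.p6. Single genes of some lists are counted in the list totals but not reported here by name.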

Additional observations from a re-analysis of the deposited data

Results flagged for a closer look

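The late log2 fold change minus the early one, M1-like against M2-like, was tested as an interaction in the joint edgeR model, and 48 named genes passed, as their classes required. The values are those of the rule that chose these genes and carry no independent support.

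Toward M1-like macrophages reversed genes had differences of Car6 5.14, Mr1 3.61, Ttll11 2.90, Cd276 4.59, Ptgir 3.20, Gstt2 2.55, Havcr2 3.87, Acyp1 2.32, Poli 2.67 and Rpl12 2.39. Toward M2-like macrophages they were Bmp2 -4.30, Col4a2 -5.44, Abca1 -4.26, Fscn1 -4.39, Igsf6 -3.56, Slc40a1 -3.50, Scd2 -4.82, Ikbke -2.71, Ighm -3.53 and Unc5b -2.73. Genes that had been higher in early M1-like macrophages and lost this had Dennd3 -4.35, Tmem171 -3.84, Htra1 -3.63, Ntng2 -3.14, Psd -3.69, Nectin2 -2.87, Slc7a11 -2.84 and Lst1 -2.59, and genes that had been higher in early M2-like macrophages Fabp7 5.36, Selp 4.28, Cdca7l 4.51, Car5b 3.61, Tmem71 3.63, Ebpl 3.76, Trim2 3.43 and Bmf 3.22. A late direction was gained toward M1-like macrophages with Slc43a3 4.0, Snhg12 2.86, Ccr1 2.46, Kif9 2.05, Aqp9 2.29 and Snhg6 1.95, and toward M2-like macrophages with Apoe -3.83, Lrrc32 -3.20, Il12rb2 -3.44, Mgll -3.00, Acp5 -3.36 and Bcam -2.50. Experiment, read length and harvest cannot be told apart in these differences. No group had the 4 samples that the check for a single outlying sample needs.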

How the results depend on the processing

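With library totals in place of TMM, chosen after the data were seen, the early counts moved to 3222 higher and 9795 lower genes, and reversals to 2900 toward M1-like and 174 toward M2-like macrophages. Where a log2 fold change had to reach 1 in size, 1310 genes were higher and 1840 lower late, 2479 and 2446 early, 1672 kept, 1531 lost and 643 gained their direction, and 69 reversed toward M1-like and 89 toward M2-like. All other alternatives kept these counts within 1.5 times. The late counts with 1 sample left out ranged from 4119 to 4226 for higher and from 3952 to 4138 for lower genes, and the others were, 5335 to 5820 and 5796 to 6254 early, 7628 to 7983 called differences, 4875 to 5261 kept, 2261 to 2600 lost and 1120 to 1398 gained directions, and 750 to 882 reversals toward M1-like and 569 to 676 toward M2-like macrophages.

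With the replicate block 4583 genes were higher and 4448 lower late, and 5537 and 6083 early, 5287 kept their direction, 2305 lost and 1374 gained it, 869 reversed toward M1-like and 699 toward M2-like, and 8401 differences were called. The block changed no count by over 1.5 times. It moved 6 named genes to another class, Htra1, Slc7a11 and Selp from lost to kept, Mgll and Cd5l from gained to kept, and Arg1 from lost to reversed. In the late libraries same-numbered samples correlated at 0.078, 0.066 and 0.302 in their deviations, and samples of different numbers at -0.233 to 0.113. M1-like replicate 2 correlated better with M2-like replicate 1 (0.113) than with its own number. Whether same-numbered late libraries share an animal cannot be told from these values. If they do, the late test without the block ignores this pairing. Of 226 named genes with a class, 58 had another class by library totals, 15 without the filter, 14 without late M1-like replicate 2, 12 without replicate 1, and at most 8 under each other alternative. Where the cause of such a change is not shown by fewer samples or another scaling, the cause was not tested. Depth limits the genes with no count or few counts in 1 group, whose folds are bounds or have wide counting intervals.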
